A study of Mus musculus with 15 samples.

Results

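The RNA that an antibody against pseudouridine (Ψ) left unbound was set against the RNA that went into the immunoprecipitation. The comparison used 6 of the 15 small RNA libraries of the series, the 3 that are labelled as flow-through and the 3 that are labelled as input, and joined their raw counts by genomic interval and strand, which is called a locus here. Across the 6 libraries there were 4930641 such loci, and 686863 of them had more than 20 counts in total over the 9 libraries of the immunoprecipitation set and were tested.

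All libraries came from the testes of male C57Bl/6 mice aged 8 weeks. Small RNA was cut from a gel, at 17 to 40 nt by the labels and in a narrower window by the methods. In the protocol, the purified RNA was incubated with the monoclonal antibody D347-3, beads were added, the RNA that did not bind was kept and cleaned on a column (flow-through), and bound mouse RNA was eluted with Ψ triphosphate (Ψ-IP). Input is labelled as the RNA of the immunoprecipitation before selection, and the same kit, Nextflex v3, is given for all 3 kinds of library. No genotype or treatment of the animals differed between the groups. Neither labels nor methods say whether different mice gave the 3 replicates, so that p-values measure only the spread between these libraries, which may be technical. The analysis of mouse testis RNA in the methods does not list flow-through among its conditions.

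piRNAs are small RNAs of the germ line that are bound by PIWI proteins, in the adult mouse testis mainly MILI and MIWI, and guide them to transposons and other transcripts. In meiotic and postmeiotic cells most piRNAs are cut from long transcripts of intergenic clusters, and most begin with U. A pair of piRNAs from opposite strands whose 5′ ends overlap by 10 nt is the mark of reciprocal (ping-pong) cleavage. Ψ is an isomer of uridine that Ψ synthases make at U residues within an RNA, and reads of these libraries do not show which U residues were modified.

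Total counts ranged from 14305933 to 21494965 in flow-through and from 16571184 to 25063656 in input, and loci of 24 to 33 nt held 95.7% to 96.7% of them. Loci began with U in 86.6% of input counts where sequence was known, and 30 nt was the most frequent length. The tables hold almost only loci inside the 647 piRNA clusters that the study lists, with 99.98% of flow-through counts and 99.99% of input counts in them, so that RNAs from elsewhere in the genome are not described here. Libraries of 1 group were further apart than counting alone would set them (chi-square divided by its degrees of freedom, 1.73 to 6.08). Flow-through replicate 1 stood apart from the other two flow-through libraries in several measures below, and results that rest on it are given with and without it. Every level is relative to its library, so that less of one RNA cannot be told apart from more of the rest, nor fewer cells of a type from less RNA per cell.

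To show what lay behind the contrast, 4 of the largest rises and the 5 largest falls in flow-through at abundant loci inside annotated exons are printed here, together with the most abundant exonic locus. The sequences are those of the sense of each locus, 5′ to 3′, read from GENCODE M21 transcripts (GRCm38, the same assembly as mm10), with every U in capitals. The rises were these:
4933414I15Rik coding sequence: UaUaaccUgcagcgcccUcaaUcacgUUc
Gm2762 exon: UUUUaUgccUUagcaacacUcgccUcccU
Gm49794 exon: UgccUacUgUgUacccUcUUUccacUg
Gm10505 exon: UaaUccUcggcUUccUggcacUUcc
The falls were these:
Gm30132 exon: UUaUUUaUUaUUUacUUUUUUgagaUcUgU
4930444F02Rik exon: UacUUccacgaUUUaaaaagUaUUUUaUUU
4933440M02Rik exon: UaUUaUUgaaUUgaUggUagaUUaUaUUgU
Asb1 UTR: UaUUUUgUUUUgacagUagaUUggUaaagU
antisense to Gm48451: UaaUgUUagaaUcUggaUaUgUUUccUUUU
The most abundant exonic locus, which did not pass the test, was this:
Gm21269 exon: UaUgUgaaUUUcaacUgUUggcUccacagg
The rises held 7 U of 29, 10 of 29, 10 of 27 and 8 of 25 bases. The falls held 19, 14, 15, 14 and 15 U of 30 bases, and Gm21269 held 10 of 30.

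Many piRNA loci differed between flow-through and input, in both directions. Of the 686863 loci tested, 44289 (6.45%) rose in flow-through and 66941 (9.75%) fell, at an adjusted p-value under 0.01 in the quasi-likelihood test of edgeR (TMM factors). Among the 27973 abundant loci (100 counts or more on average over the 6 libraries), 6597 (23.6%) rose and 9488 (33.9%) fell, and for 6581 and 9476 of them all 9 pairs of a flow-through and an input library had that direction. Most called loci differed at least 2-fold, with 5694 rises and 8422 falls of that size at abundant loci. At least 8-fold, there were 384 rises and 610 falls. The fit found only 7 of 100 simulated 2-fold changes at abundant loci, so that smaller differences could mostly not be called. The split depended on the loci fitted and on the scaling. With the abundant loci fitted alone, 8886 rose and 8436 fell. Scaled to total counts alone, the median locus moved from a log2 fold change of -0.24 to -0.04, and the share of rises among called loci moved from 39.8% to 52.0%. Without flow-through replicate 1, 54951 loci rose and 68784 fell, and without input replicate 1, 2 or 3 the numbers were 24297 and 34991, 27010 and 39967, and 23608 and 34215.

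The largest fall among the exonic loci printed was at Gm30132, a lincRNA, in a 30-nt locus on the minus strand at chr8:93419298-93419327 (mm10) that also lies within an intron of Gm45765 on the other strand. It had 0.259, 0.614 and 0.835 CPM (counts relative to the TMM-scaled total of the library) in flow-through and 39.7, 32.8 and 35.2 in input, a log2 fold change of -6.03 (standard error, SE, 0.32; adjusted p = 6.9e-12, edgeR). All 3 flow-through libraries were far below all input libraries, while Ψ-IP libraries averaged 26.7 CPM. The locus of 4930444F02Rik, a lincRNA, at chr10:18800665-18800694 (minus), which also lies within an intron of Gm32926 on the other strand, had 0.646, 0.409 and 1.93 CPM in flow-through against 29.7, 20.04 and 32.4 in input, a log2 fold change of -4.85. The locus of 4933440M02Rik, another lincRNA, at chr7:125329894-125329923 (minus) had 0.0862, 1.28 and 0.578 CPM against 15.1, 12.5 and 16.1 (log2 fold change -4.52). Both were lower in every flow-through library than in any input library.

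The locus in the UTR of Asb1, which encodes an ankyrin repeat and SOCS box protein, at chr1:91557153-91557182 (plus) had 0.215, 1.64 and 0.770 CPM in flow-through against 19.3, 18.5 and 17.3 in input (log2 fold change -4.41). The locus antisense to the processed pseudogene Gm48451 at chr10:86573606-86573635 (minus) had 0.862, 1.07 and 1.16 CPM against 18.7, 18.5 and 19.2 (log2 fold change -4.19). The groups did not overlap at either locus. In Ψ-IP, which shares its input libraries with this comparison, the 5 falling loci had log2 fold changes over input of -0.41, 0.83, 0.27, 0.77 and -0.35 in the order printed, and 2 of the 5, those of 4930444F02Rik and Asb1, were called higher, beside 4.95% of all loci tested. Named loci were picked by their difference from the same input libraries, so that their Ψ-IP values over input are a description and no test.

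Among the rises, the coding sequence of 4933414I15Rik at chr11:50942686-50942714 (minus) had 13.1, 11.9 and 12.8 CPM in flow-through and 0.703, 0.189 and 0.743 in input, a log2 fold change of 4.48 (SE 0.34; adjusted p = 1.1e-09, edgeR). The exon of Gm2762, a lincRNA, at chr13:53402448-53402476 (plus) had 17.5, 11.7 and 8.73 CPM against 0.527, 0.819 and 0.400 (log2 fold change 4.45). Input levels at these loci were below 1 CPM, and every flow-through library was above every input library. The exon of Gm49794, a lincRNA, at chr17:27356914-27356940 (plus) had 20.4, 26.3 and 13.2 CPM against 0.835, 2.14 and 0.743 (log2 fold change 4.04). The exon of Gm10505 at chr17:27343718-27343742 (plus) had 20.3, 14.1 and 13.5 CPM against 1.05, 0.945 and 1.09 (log2 fold change 3.95). These last 2 lie in the same cluster on chromosome 17. The Ψ-IP libraries averaged 2.08, 2.62, 4.90 and 2.82 CPM at the 4 loci, between input and flow-through. Set against the shared input, Ψ-IP had log2 fold changes of 1.91, 2.18, 2.03 and 1.47 at these loci, which were picked for low input beside flow-through. All 4 were called higher by the rule that called 2 of the 5 falls, and these values too are a description only.

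Over all abundant loci, those inside and outside exons, the 10 largest rises had log2 fold changes of 4.02 to 6.37 and the 10 largest falls of -6.50 to -5.17. The largest of each lay outside exons, where no sequence was read. The largest fall was a 30-nt locus at chr15:74640486-74640515 (plus) with 0.129, 0.205 and 0.0642 CPM in flow-through and 13.4, 13.0 and 12.5 in input (log2 fold change -6.50). The largest rise was a 16-nt locus at chr15:57975974-57975989 (minus), shorter than a piRNA, with 9.05, 17.6 and 15.0 CPM against 0.132, 0.189 and 0.172 (log2 fold change 6.37). Of the 10 largest rises and the 10 largest falls, 1 rise lay in a repeat, an ID4 element at chr9:67738764-67738793, and 1 fall in another, the ERV1 element RLTR14-int at chr6:127805719-127805747 (log2 fold changes 4.53 and -5.30). A fall in an intron of Cyp19a1, the gene of aromatase, at chr9:54241429-54241460 reached a log2 fold change of -5.68, with 0, 0.511 and 0.385 CPM in flow-through and 14.3, 14.2 and 15.5 in input.

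The 5 most abundant loci all had negative log2 fold changes, and 3 of them fell. The top locus, 29 nt at chr17:66213513-66213541 (plus), had 1114, 1093 and 1151 CPM in flow-through and 2079, 1593 and 2087 in input (log2 fold change -0.78, SE 0.16; adjusted p = 0.00057, edgeR). The locus of Gm21269, a lincRNA, at chr7:73824992-73825021 (plus) had 695, 793 and 810 CPM against 1190, 886 and 1225, with a log2 fold change of -0.52 that did not pass (adjusted p = 0.019, edgeR). Both were lower in each flow-through library than in each input library. A locus in an intron of Gm10505 at chr17:27333015-27333044 (plus) fell from 1775, 1159 and 1798 CPM in input to 236, 280 and 286 in flow-through (log2 fold change -2.56). The MIRc locus at chr6:127800672-127800701 fell (log2 fold change -0.84), and the locus at chr9:67708999-67709029 had a log2 fold change of -0.08 (adjusted p = 0.74, edgeR) with overlapping groups. The call at the top locus was lost without flow-through replicate 2, input replicate 1 or input replicate 3, and that at MIRc without input replicate 1. Ψ-IP had log2 fold changes over the shared input of -1.91 at the top locus, -0.74 at Gm21269 and -1.33 in the Gm10505 intron. At MIRc the Ψ-IP value was -1.54 and at chr9:67708999-67709029 it was 0.10, which is again a description only.

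Loci with many U residues were lower in flow-through and loci with few were higher. Sequence was available for 102714 of the loci tested (14.95%), those wholly inside annotated exons, and all values on sequence describe only these, since too few of all loci could be read to check composition over the whole set. Mean U content per count was 25.2%, 26.7% and 26.7% in the flow-through libraries and 30.7%, 30.97% and 30.6% in input, or 26.2% ± 0.90 against 30.7% ± 0.19 (SD, n = 3 each), a difference of -4.55 percentage points. The groups did not overlap, and an exact permutation test of 3 against 3 libraries gave p = 0.1, the smallest value it can give, here and wherever p = 0.1 is printed. Ψ-IP libraries averaged 32.1%. Without flow-through replicate 1, the lowest of all, the difference was -4.03 points.

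Counts were divided by the U content of their locus to see where the difference lay. Loci with under 20% U held 26.8%, 21.9% and 21.5% of exonic counts in flow-through and 11.4%, 10.7% and 11.4% in input, 2.09 times as much. Loci with 40% U or more held 5.41%, 8.35% and 8.20% against 17.6%, 18.4% and 17.4%, or 0.411 times as much, and 23.6% in Ψ-IP. The bottom class was thus larger and the top class smaller in every flow-through library than in any input library. Loci with a run of at least 5 U held 2.11% of counts in flow-through and 4.74% in input.

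Fold changes of single loci followed the same gradient. Over the 3347 abundant exonic loci, the median log2 fold change was 1.81 for loci with up to 10% U, 0.23 for those with over 20% to 25%, -0.64 for those with over 30% to 35% and -2.14 for those with over 45% to 50% U. Of the 81 loci in the lowest class 86.4% rose and 1.23% fell. Of the 99 loci with over 45% to 50% U 1.01% rose and 89.9% fell. The median then was -1.72 for the 21 loci above 50%, but over all exonic loci tested it went from -1.99 (4840 loci with over 45% to 50% U) to -2.56 (1926 loci above 50%). Called falls had a median U content of 34.5% (1101 loci), called rises of 22.6% (865 loci), and loci that did not pass of 26.7% (1381 loci).

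**Figure D1:**
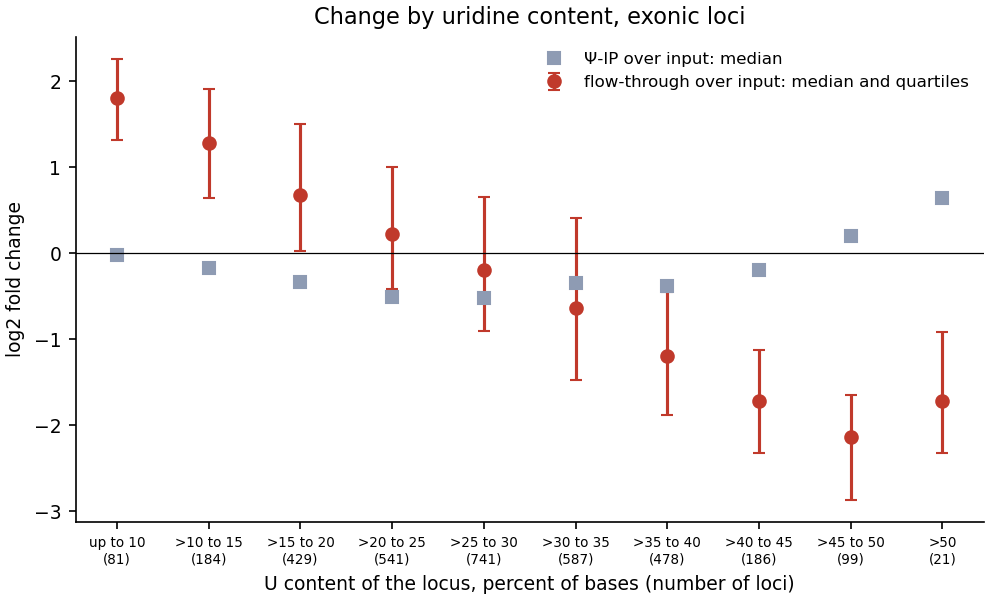
Log2 fold change over input (vertical) by U content of the locus in percent of bases (horizontal, number of loci in brackets) for abundant exonic loci (100 counts or more on average). Red points and bars give the median and quartiles of flow-through over input, which run from 1.81 at up to 10% U to -2.14 at over 45% to 50%, and grey-blue squares the median of Ψ-IP over input, which shares the input libraries.

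The plot of fold change by U content also gives the Ψ-IP medians in the same classes. They were -0.02, -0.52, 0.20 and 0.65 at up to 10%, over 25% to 30%, over 45% to 50% and over 50% U. As the input libraries are common to both comparisons, the values are given side by side only.

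U content and log2 fold change had a Pearson's r of -0.58 over these 3347 loci and of -0.48 over all 102714 exonic loci tested, which describes loci that share libraries, depth and, in neighbours, bases. G and C content together had r = 0.61 over the 3347 loci, so that low U and high GC moved with the rise together. Taken apart, C had r = 0.44, G 0.20 and A 0.03. In a linear fit with A as the base replaced, 10 percentage points of U went with -0.66 in log2 fold change, of C with 0.91 and of G with 0.63. Mean GC content per count was 45.3% ± 0.64 in flow-through and 41.2% ± 0.26 in input, while A content was 28.5% and 28.1% (p = 0.4, exact permutation test). Ψ-IP libraries averaged 41.2% GC. The 25 loci with over 40% to 45% C all rose, at a median log2 fold change of 3.04. In Ψ-IP, which shares the input, their median over input was 1.49. At over 35% to 40% C the Ψ-IP median was 1.11, and at over 15% to 20% C it was -0.64. In the linear fit each slope was taken with the other bases of the fit held. U, C and G each had a slope, so that the fit did not reduce to U alone or to GC alone. Which property of these loci lies behind the gradient was not tested.

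The gradient was found inside single clusters and in each pair of libraries. Of 40 clusters with at least 30 exonic loci of an average of at least 50 counts, all 40 had a negative r of U content with log2 fold change, between -0.85 and -0.15 with a median of -0.56, and all 40 a positive r for GC. Over the 9 pairs of a flow-through and an input library, r for U ran from -0.50 to -0.65. Pairs within input gave -0.11, 0.003 and 0.11. Within flow-through, however, replicate 1 over replicates 2 and 3 gave -0.57 and -0.53, with a median log2 ratio of -0.78 and -0.81 at loci with 40% U or more, while replicate 2 over replicate 3 gave -0.03. Flow-through replicate 1 was therefore further along the same gradient than the other two. Without it, r was -0.55, and at loci with 40% U or more the medians of the 6 other pairs of a flow-through and an input library ran from -1.60 to -1.49.

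U was lower in flow-through along the whole length of piRNAs, not at 1 site. In exonic loci of 29 to 31 nt, the share of counts with U was lower in flow-through at each of the first 29 positions, with no overlap between groups at any of them, though positions share the same reads. At the first position, where piRNAs mostly have U, the shares were 87.2% and 88.5%, a difference of -1.29 points. At position 2 they were 16.1% and 21.2%. The difference was largest at position 8, at -5.92 points, and smallest after the first base at position 20, at -3.06 points.

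**Figure D2:**
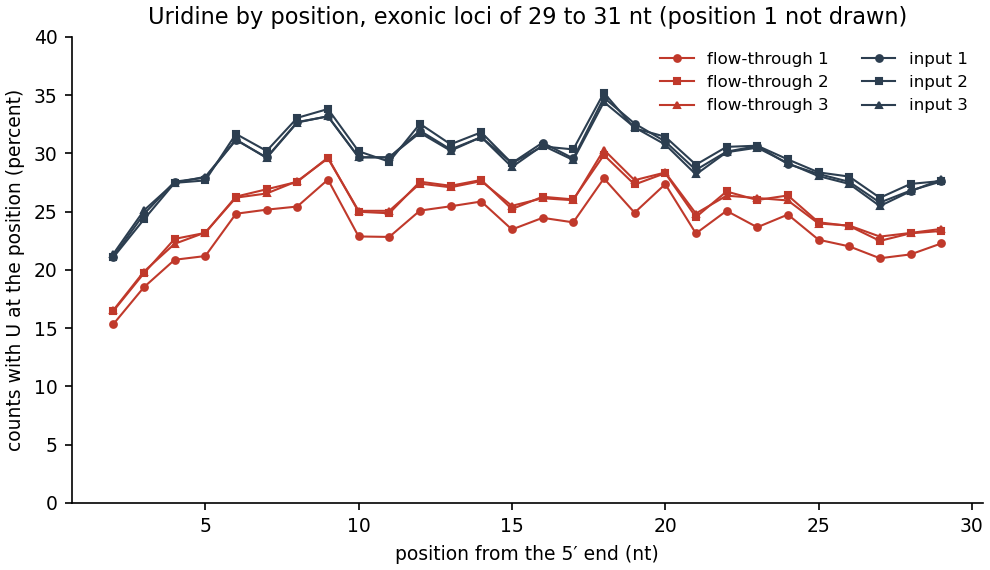
Share of counts with U (percent, vertical) at each position from the 5′ end (nt, horizontal) in exonic loci of 29 to 31 nt, with 1 line per library and the first position left out. All 3 flow-through lines (red) lie below all input lines (dark) from position 2 to position 29, and flow-through replicate 1 is the lowest.

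Runs of U and a motif of a Ψ synthase were compared next. The median log2 fold change was 0.79 for 761 loci whose longest run of U was 1 base, -0.15 for 1373 loci with a run of 2, -0.68 for 850 with a run of 3, -1.37 for 262 with a run of 4 and -1.70 for 68 with a run of 5. PUS7, one of the Ψ synthases, favours U within UNUAA or UNUAG, searched on the strand of the RNA only. Such a motif was present in 21.6% of the 3347 loci, in 28.97% of called falls and in 13.9% of called rises. Loci that hold it also hold more U, so loci of like U content were set side by side: at over 30% to 35% U the median was -1.01 with the motif and -0.51 without, and at over 40% to 45% it was -2.07 with and -1.55 without. At over 20% to 25% U the medians were 0.10 and 0.26. GC content was not matched in these pairs, and its part in them was not tested.

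Flow-through libraries held fewer distinct loci than input at the same depth. When each library was reduced to 11575705 counts, the total of the smallest library of the set, the expected number of distinct loci was 1099100, 1351600 and 1310900 in flow-through and 1659730, 1618710 and 1605090 in input, a difference of -373975 (p = 0.1, exact permutation test). Flow-through replicate 1 was lowest, and the difference without it was -296592. The Ψ-IP mean was 1258080. Loci seen once at that depth held 2.64%, 4.50% and 4.04% of counts in flow-through and 7.75%, 7.496% and 7.22% in input. At 1157570 counts the difference was -14710, and -7653 without flow-through replicate 1.

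**Figure D3:**
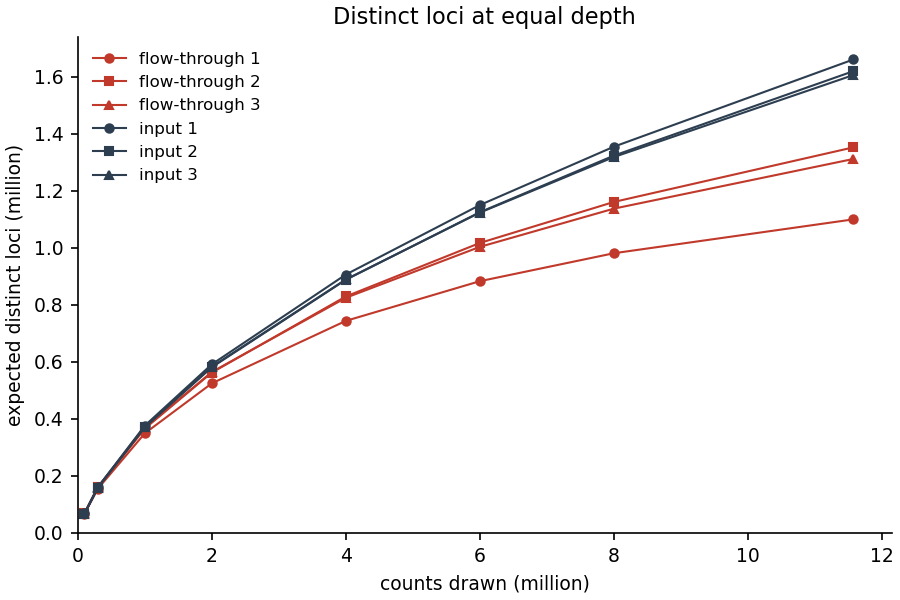
Expected number of distinct loci (vertical) against the number of counts drawn from a library (horizontal), with 1 line per library. The lines of both groups run close together at low depth, and at 11575705 counts the 3 flow-through libraries (red) lie between 1099100 and 1351600 and the 3 input libraries (dark) between 1605090 and 1659730.

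The shortfall was seen at most lengths and in all repeat classes. In 24- to 28-nt loci, each library reduced to the same depth in that class, flow-through held 391999 distinct loci and input 558914. In 29- to 31-nt loci the numbers were 571446 and 708326. Loci of 34 nt or more were the exception, with 61296 and 59429 and overlapping groups (p = 0.5, exact permutation test). In LINE loci the numbers were 45594 and 63906, and in SINE loci 34373 and 41662.

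The share of the most abundant loci was compared as well. The 1000 most abundant loci of each library held 12.7%, 12.0% and 11.7% of counts in flow-through and 12.7%, 12.8% and 12.9% in input, a difference of -0.67 points (p = 0.1, exact permutation test) that was -0.94 without flow-through replicate 1. For a top list 10 times as long the shares were 33.8%, 32.5% and 31.95% against 32.99%, 33.4% and 33.4% (p = 0.4, exact permutation test), with flow-through replicate 1 above every input library and the other two below. The difference was -0.56 points, and -1.07 without flow-through replicate 1. Nearly all flow-through counts fell on known ground: 94.7% to 95.1% were at loci also seen in an input library, and 92.5% to 93.0% of input counts were at loci also seen in a flow-through library. By number of loci the shares were 71.1% to 73.7% and 51.5% to 57.5%. The number of PCR cycles and the RNA put into each library are not given in the sources used here.

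Length profiles were alike, with a difference at the long end. The share of counts at 29 to 31 nt was 65.0%, 65.6% and 66.4% in flow-through and 67.1%, 67.7% and 66.8% in input, a difference of -1.52 points (p = 0.1, exact permutation test). When each locus was counted once, the difference turned to 2.99 points. Loci of 34 nt or more, longer than most piRNAs, held 2.48%, 1.92% and 2.27% of counts in flow-through and 1.60%, 1.498% and 1.40% in input, which was 1.48 times as much. All flow-through libraries were above all input libraries in this class. With only the loci of more than 20 counts over the 9 libraries, the shares were 1.31% and 1.03%, which was 1.27 times as much. The shares at 24 to 28 nt overlapped (22.3% and 21.9%, p = 0.7, exact permutation test), and so did those at up to 23 nt (1.86% and 2.02%, p = 0.3, exact permutation test). With each locus counted once, the differences were -3.95 and -3.04 points, without overlap (p = 0.1 each, exact permutation test). Shares with each locus counted once, here and below, were taken at the full depth of each library, not at equal depth. At 19 nt alone flow-through held 0.269% and input 0.465%.

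The share of 10-nt overlaps was higher in flow-through. Of all overlaps of 1 to 20 nt between 5′ ends on opposite strands, those of 10 nt were 12.7%, 11.6% and 12.2% in flow-through and 8.78%, 9.34% and 8.78% in input, 12.2% ± 0.57 against 8.97% ± 0.32 (SD, n = 3 each; p = 0.1, exact permutation test). Ψ-IP libraries averaged 10.6%. The difference of 3.2 points was 1.73 when only loci of 24 to 33 nt were used and 1.94 when each 5′ end was counted once. Overlapping counts were fewer in flow-through, 3.796 per 100 counts against 4.31, though flow-through replicate 2 and input replicate 2 were nearly equal (3.88 and 3.91), and the difference of -0.51 was -0.30 without input replicate 1. A at base 10, the usual partner of a first U in a ping-pong pair, was at 31.3% of exonic counts in flow-through and 30.1% in input. First-base U was at 85.5% and 86.6%, and with each locus counted once at 72.8% and 71.96%, where the groups overlapped (p = 0.2, exact permutation test) and the difference of 0.88 points was 0.40 without input replicate 1.

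**Figure D4:**
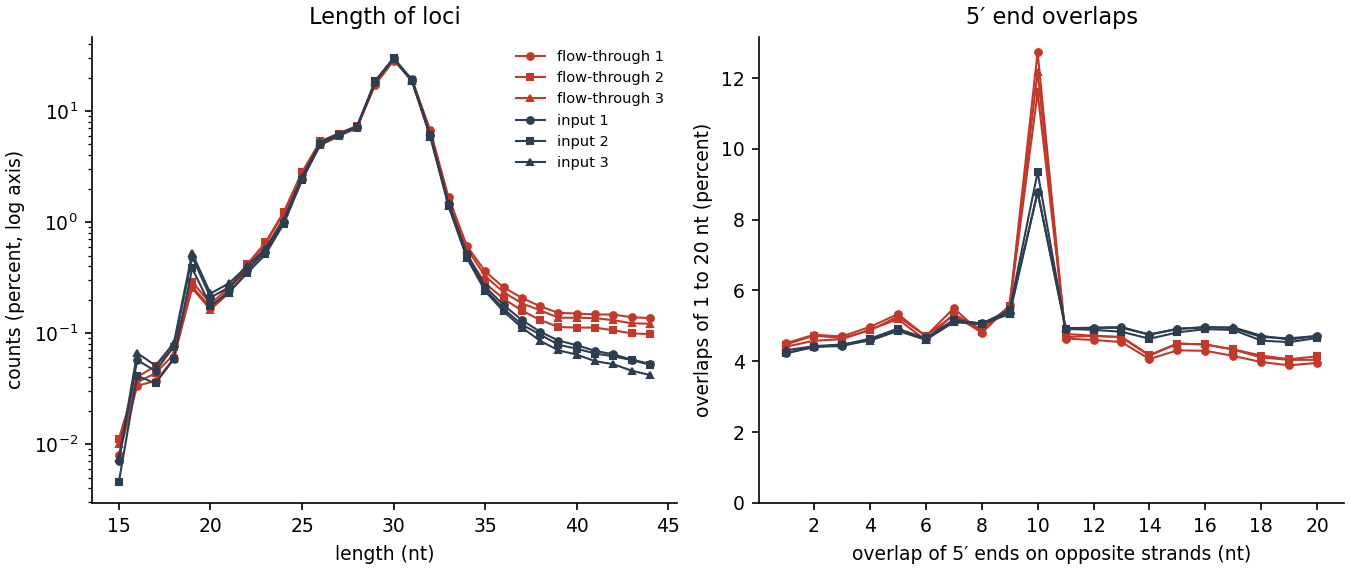
Left, share of counts (percent, log axis) by locus length (nt), and right, share of all overlaps of 1 to 20 nt (percent) by overlap of 5′ ends on opposite strands (nt), with 1 line per library. Flow-through libraries (red) lie above input (dark) at each length from 35 nt to 44 nt, and at the 10-nt overlap they reach 11.6% to 12.7% against 8.78% to 9.34%.

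Repeat-derived piRNAs made up a small part of both fractions, and LINE and DNA transposon sequences were lower in flow-through. Loci outside repeats held 85.4% of counts in flow-through and 84.7% in input. LINE loci held 3.19%, 3.37% and 3.37% against 3.87%, 3.94% and 3.83%, and DNA transposon loci 0.943%, 0.948% and 0.966% against 1.16%, 1.13% and 1.22%. SINE loci were higher, at 2.78%, 2.71% and 2.78% against 2.62%, 2.57% and 2.60%. These 4 did not overlap between groups (p = 0.1 each, exact permutation test), whereas LTR loci did, with 7.54% and 7.62% (p = 0.3, exact permutation test).

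Summed by family, 9 of the 25 families tested (36.0%, loci outside repeats included) rose and 6 (24%) fell, and 20 of 25 (80.0%) did not overlap between groups. L1, the LINE family that is still mobile in mouse, fell from 29734, 30239 and 29281 CPM in input to 23032, 24322 and 24484 in flow-through, a log2 fold change of -0.31 (SE 0.03; adjusted p = 3.1e-05, edgeR). Each flow-through library was below each input library, and Ψ-IP libraries averaged 33185 CPM. ERV1, a class of endogenous retroviruses, fell (log2 fold change -0.25). Among DNA transposons of the hAT superfamily, which are fossils in the mouse genome, hAT-Blackjack fell from 905, 672 and 947 CPM to 153, 264 and 289 (-1.84), hAT-Tip100 from 849, 731 and 837 to 397, 441 and 468 (-0.89), hAT# by 1.63 and hAT-Charlie by 0.17 on the log2 scale. The sign in hAT# is that of the annotation. In Ψ-IP, hAT-Blackjack averaged 332 CPM against 842 in the shared input, and hAT-Tip100 538 against 806. Their Ψ-IP log2 fold changes over input were -1.38 and -0.63, and those of hAT# and hAT-Charlie -0.43 and -0.12. For L1 and ERV1 the values were 0.12 and 0.02, all of them a description only.

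The largest rise was that of 5S-Deu-L2, an old SINE family, from 11.5, 13.4 and 16.8 CPM in input to 107, 90.3 and 70.7 in flow-through, a log2 fold change of 2.69 (SE 0.20; adjusted p = 2.6e-05, edgeR). All its counts came from the subfamily AmnSINE1. Alu, the family under which the annotation places mouse B1, rose from 4096, 3956 and 4075 CPM to 5872, 5220 and 5183 (0.42), and B2, another SINE family, rose by a log2 fold change of 0.25. ERVL, an LTR family, rose by 0.16. The families named LTR, RTE-X and ERVK# rose by 0.99, 0.57 and 0.50. ERVK, the family of IAP elements, had a log2 fold change of -0.02 and B4 of 0.06, and neither passed. The rise of ERVL-MaLR (0.06) was lost in 10 of the other settings, that of loci outside repeats (0.03) in 7 and that of ERVK# in 8, whereas L1, Alu, B2, ERVL, ERV1, RTE-X, LTR, 5S-Deu-L2, hAT-Tip100, hAT-Blackjack and hAT# passed in all settings in which they were tested. The fall of hAT-Charlie was lost without input replicate 1 and with no filter.

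**Figure D5:**
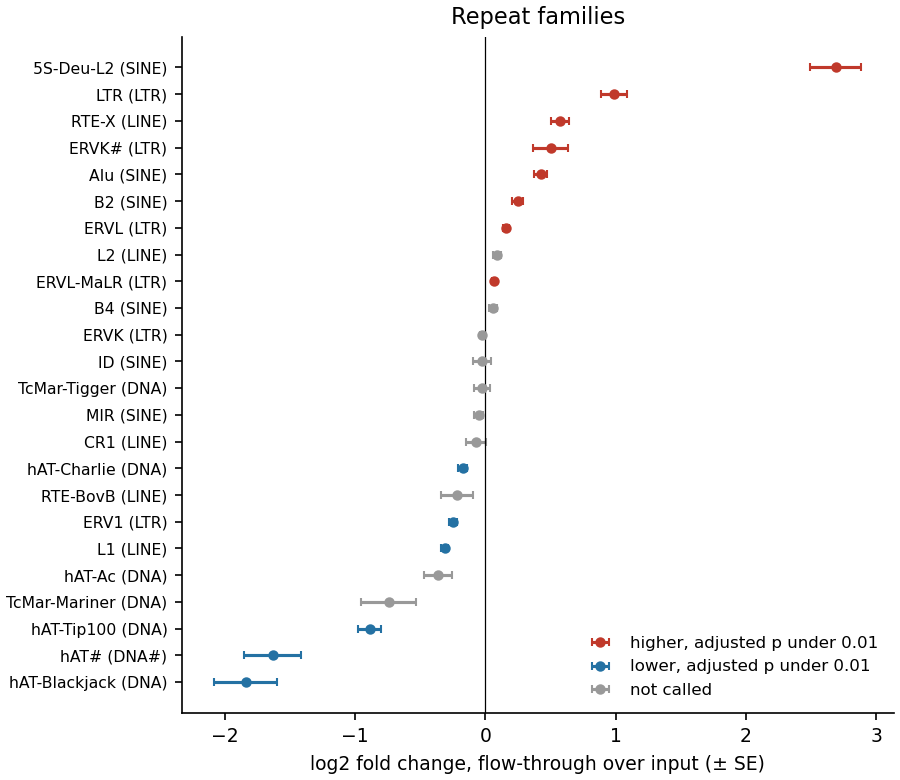
Log2 fold change of flow-through over input (horizontal, ± standard error) for each of the repeat families tested, with loci outside repeats left out. Families that passed the edgeR test are red (higher) or blue (lower) and others are grey, with 5S-Deu-L2 at 2.69 and hAT-Blackjack at -1.84 as the ends.

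By subfamily, 85 of 317 names rose (26.8%) and 78 fell (24.6%), with a median log2 fold change of 0.00 over all names, and 239 (75.4%) did not overlap between groups. Among young L1 (names beginning L1Md) 1 of 5 rose and 3 fell with a median of -0.32, and the most abundant, L1MdV, fell from 1751, 1765 and 1732 CPM to 836, 1004 and 1012 (log2 fold change -0.88). Among rodent L1 (Lx and L1_Mus) 8 of 20 rose and 6 fell with a median of 0.12, and the most abundant, Lx5c, had 0.11 and did not pass. Among the other L1, most of them older, 5 of 31 rose and 14 fell with a median of -0.25, L1M2, the most abundant, being at -0.74. L1 was thus not uniform, and its subfamilies ranged from L1MC5a at -2.58, the largest fall of all names, to L1ME3 at 1.22 and Lx3C at 1.35.

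In SINEs and DNA transposons the counts are set beside the 26.8% of all names that rose and the 24.6% that fell. Of B1, 5 of 10 names rose and 1 fell with a median of 0.23, the name B1 itself rising from 1946, 1996 and 1961 CPM to 3554, 3049 and 2939 (0.69). All 3 B2 names rose, 1 of 4 B4 and 1 of 5 MIR names rose, and none of these fell, the few B4 and MIR names being near the shares of all names in rises. Of B3, the most abundant of the B2 names (0.24), the call was lost without any 1 of the input libraries. In hAT, 3 of 34 names rose and 16 fell with a median of -0.27, MamRep1894 at -2.51 and Zaphod at -1.91 being among the 5 largest falls of all names, while the most abundant, MER20, rose (0.53). TcMar had 1 rise, MER2 (0.41), and 1 fall among 3 names.

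LTR subfamilies were counted against the same 26.8% and 24.6% of all names. Of MT elements of the MaLR group, whose LTRs act as promoters in oocytes, 6 of 12 rose and none fell, with MTC at 0.27. ORR1 had 3 rises and 3 falls of 18 names, IAP 1 and 1 of 8, other ERVK 23 and 18 of 72, ERV1 4 and 4 of 26, and ERVL 8 and 4 of 25, those of other ERVK and ERVL lying near the shares of all names. The most abundant ERVK name, MurERV4, had -0.10 and did not pass. MER52-int of ERV1 fell from 841, 1064 and 813 CPM to 190, 227 and 242 (-2.04), MLT1N2 of ERVL-MaLR fell by 1.85 on the log2 scale, and RMER10A of ERVL (0.60) and RLTR20B2 of ERVK (1.52) rose. The names most abundant in the remaining lists, ORR1F (0.13), IAPLTR3-int (-0.13), MLTR14 of ERV1 (-0.07), MIRb (-0.11) and ID of B4 (0.11), did not pass. The name L2, an old LINE, rose (1.34) while its family had 0.09 and did not pass.

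At the level of single loci the same lists were set against all loci tested, of which 6.45% rose and 9.75% fell, with a median log2 fold change of -0.24. Of 19973 L1 loci 757 (3.79%) rose and 2795 (13.99%) fell, with a median of -0.79. Of 4645 hAT loci 234 (5.04%) rose and 676 (14.6%) fell, with a median of -0.75. Both lists had a smaller share of rises and a larger share of falls than all loci, a description with no test of the difference, as for the lists that follow. Of 3824 B1 loci 370 (9.68%) rose and 194 (5.07%) fell, with a median of 0.40. In LTR loci, 5.43% rose and 8.78% fell with a median of -0.24, the value of all loci. Loci did not always follow the count of subfamilies. Of 7355 Lx and L1_Mus loci 320 (4.35%) rose and 747 (10.2%) fell, with a median of -0.43. Of MT loci 5.49% rose and 8.24% fell with a median of -0.20, near the values of all loci. Of 3527 B2 loci 189 (5.36%) rose and 177 (5.02%) fell, with a median of 0.04. Within L1 the young L1 loci had a median of -1.20 (2.56% rose and 14.5% fell) and the other L1 loci one of -0.95 (3.72% and 16.7%). TcMar loci had -0.64 and IAP loci -0.55, and the medians of the other lists (ERVK without IAP, ERV1, ERVL, ORR1, B4 and MIR) ran from -0.33 to -0.14.

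Whole clusters were compared by their summed counts. Of 585 clusters tested, 92 rose (15.7%) and 112 fell (19.1%), and 345 (59.0%) did not overlap between groups. The balance turned with the settings, to 106 rises and 98 falls with DESeq2 size factors and 111 and 99 with the Wald test of DESeq2, and with all 9 libraries in 1 fit 109 of 210 called clusters rose. Without input replicate 1 it was 67 and 63, and without input replicate 3 it was 74 and 68. The median size of a called log2 fold change was 0.40, and 10 called clusters differed at least 2-fold. The most abundant, at chr17:27269742-27371971, which holds Gm10505 and Gm49794, rose from 80218, 80951 and 81040 CPM in input to 97771, 95803 and 92092 in flow-through, a log2 fold change of 0.24 (SE 0.02; adjusted p = 9.2e-07, edgeR). Within it, 5469 loci rose and 4484 fell of 55425 tested, beside 6.45% and 9.75% of all loci. The clusters at chr9:67687024-67773986 and chr18:67026089-67102906 fell by 0.12 and 0.11 on the log2 scale, calls that were lost without input replicate 1. The cluster at chr2:92515043-92616945 (-0.01) and that at chr7:73759085-73850982 (0.06; adjusted p = 0.026, edgeR) did not pass.

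The clusters with the largest rises held snoRNA genes or unusual lengths. The cluster at chr10:81175015-81183061, which holds the translation factor gene Eef2 with the snoRNA Snord37, rose from 6.94, 6.75 and 7.18 CPM to 37.4, 40.4 and 47.3, a log2 fold change of 2.58 (SE 0.10; adjusted p = 2.6e-10, edgeR). The snoRNA made up 91.8% of its flow-through counts and 80.1% of its input counts. The cluster of Snhg5 at chr9:88521201-88526026, host of Snord50a and Snord50b, rose by 1.82 and that of Atp5b at chr10:128083327-128086417, host of Snord59a, by 1.56. With loci of 24 to 33 nt alone, the Eef2, Snhg5 and Atp5b clusters had log2 fold changes of 2.49, 1.21 and 1.22. Loci in snoRNA genes made up 82.3% of flow-through and 46.3% of input counts in the Snhg5 cluster. The cluster at chr13:23430593-23453778 with C230035I16Rik rose by 2.33, and 2.36% of its flow-through counts and 2.55% of its input counts were at 24 to 33 nt. The cluster at chr15:57975877-57982912 rose by 2.28, with 25.2% of flow-through and 92.2% of input counts at 24 to 33 nt, and its log2 fold change was 0.41 with loci of 24 to 33 nt alone. These 5 clusters are small beside the most abundant ones, with flow-through means of 20.9 to 163 CPM.

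The largest falls were milder. The cluster at chr12:67650597-67675786 fell from 23.8, 17.4 and 22.1 CPM to 5.61, 7.56 and 9.41 (log2 fold change -1.52). The clusters of Gmfb (chr14:46808175-46811802), Purb (chr11:6467625-6474529) and Cggbp1 (chr16:64855549-64859459) fell by 0.88, 0.83 and 0.83 on the log2 scale, the last only while input replicate 3 was kept. The cluster of Ctdsp2 at chr10:126995543-126999626 fell by 0.90 on the log2 scale but was 0.74 higher with loci of 24 to 33 nt alone (adjusted p = 0.00019, edgeR), and its microRNA genes, Mir26a-2 and Mir546 together, made up 28.5% of its flow-through counts and 76.1% of its input counts.

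Sense loci were also grouped by the annotated RNA that they lie in. Loci in snoRNA genes, which guide the modification of other RNAs, held 0.0101%, 0.0107% and 0.0114% of counts in flow-through and 0.00192%, 0.00215% and 0.00174% in input, 5.55 times as much, and of 100 such loci tested 30 rose and none fell, beside 6.45% and 9.75% of all loci. These loci are overlapping pieces of few genes, so that they are not independent of one another. Of all loci in the Snord37 and Snhg5 clusters named above, 15 rose in each, and in that of Snord59a 0 rose. The share of the 3′ UTRs of coding genes was lower, at 1.89%, 1.94% and 1.98% against 2.18%, 2.23% and 2.17%, with a median log2 fold change of -0.46 over 19679 loci. Of these 623 (3.17%) rose and 1664 (8.46%) fell, the latter near the share of all loci. Coding sequence was higher (0.429% and 0.379%), and so were 5′ UTRs (0.0202% and 0.0118%) and exons of lncRNAs (8.99% and 8.35%). By number of loci, 173 (5.57%) rose and 251 (8.08%) fell of 3106 in coding sequence (median log2 fold change -0.09), and 4181 (7.07%) and 5478 (9.26%) of 59162 in lncRNA exons (-0.15), all near the shares of all loci, whereas 16 of 167 rose and 1 fell in 5′ UTRs (0.85). The differences between these shares were not tested. The shares of all these groups were without overlap between libraries (p = 0.1 each, exact permutation test), and introns (19.4% and 19.6%) and the space outside genes (66.5% and 66.7%) differed little in size.

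Small RNA genes within clusters were looked at one by one after their values had been seen. Reads of Mir26a-2 had 36.4, 24.1 and 39.1 CPM in input and 3.23, 5.98 and 3.79 in flow-through, a log2 ratio of the means of -2.94 (p = 0.1, exact permutation test). Mir700 had the opposite direction, with 2.72, 2.08 and 2.63 CPM in input and 7.76, 4.45 and 3.92 in flow-through (log2 ratio 1.12, p = 0.1, exact permutation test). These are the clearest microRNAs of the set by length, with a mean of 20.6 and 21.1 nt, and their mature forms are printed from RefSeq (GRCm38.p6) with the seed, bases 2 to 8, in capitals:
miR-26a-5p: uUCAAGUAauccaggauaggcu
miR-700-3p: cACGCGGGaaccgaguccacc
The cluster begins 1 base into miR-26a-5p at Mir26a-2, so that only reads from its second base on are in the tables, and Mir26a-1 on chromosome 9 gives the same mature sequence. The most abundant Mir26a-2 locus had 5 U of 21 bases, and that of Mir700, at chr4:135416561-135416581 (minus), 1 U of 21.

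The snoRNAs Snord37, Snord50a, Snord50b and Snord59a had log2 ratios of 2.57, 2.22, 2.60 and 1.41. Snord37 had 30.3, 36.3 and 40.3 CPM in flow-through and 6.33, 5.73 and 5.95 in input. Reads of these genes averaged 30.1 to 33.02 nt, so that they are pieces of the snoRNAs. Most loci annotated as microRNAs in piRNA clusters, such as Mir7221 (log2 ratio 1.43), Mir7242 (2.18) and Mir7216 (-1.20), had a mean length of 26.9 to 28.9 nt, which is that of piRNAs. Mir7221 had 13.5, 16.6 and 15.6 CPM in input and 43.4, 43.3 and 36.4 in flow-through, without overlap. Its leading locus held 4 U of 27 bases, and the leading locus of Mir7216 held 11 U of 29.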

How the data were processed

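The authors clipped adaptors with Cutadapt, kept reads of 14 to 44 nt, set tRFs aside, mapped the rest to mm10 with Bowtie 2 and intersected alignments with repeats and piRNA clusters (the submitters' processing notes name Bowtie2 and bedtools without versions). Each deposited table holds the raw counts of 1 library by interval and strand, not normalized. How reads with several alignments were counted is not given in the sources used here, so that single loci in repeats are uncertain in position.

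Groups and replicate numbers came from the labels. Tables were joined by locus in Python 3.11.15 (numpy 2.4.6, pandas 2.3.3) and tested in R 4.3.3 with edgeR 4.0.16 (TMM, quasi-likelihood test, group as the term, Benjamini-Hochberg adjustment over each table, called at 0.01) on the 6 libraries. DESeq2 1.42.0 was an alternative, since the methods name it for mouse loci. Loci needed more than 20 counts over 9 libraries, and clusters, families and subfamilies an average of 100 counts. Standard errors are the log2 fold change divided by the root of F. Single values were compared by exact two-sided permutation tests, which with 3 libraries against 3 give no p under 0.1. Named loci (100 counts or more on average) are the 10 largest called rises and falls with 1 direction in all 9 pairs, the 5 most abundant, and the 5 exonic ones each way not on chromosome 18. Named clusters are the 5 most abundant and the 5 largest rises and falls, families are all those called, and subfamilies are the 5 largest each way and the most abundant of each list. The members and lists were chosen with earlier results of these data known. The sequence of a 31-nt exonic rise is not printed.

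The fit was tested on simulated data: with 200 abundant loci (100 counts or more on average) changed among the 686863, it found 96 of 100 4-fold and 7 of 100 2-fold changes and made 1 false call, and with changes drawn from all loci it found 13 of 200. It found 200 of 200 changed clusters among 585, with 1 false call. Simulated counts were drawn independently for each row, with no shift shared by many loci. Real libraries of 1 group did differ along U content, so that false calls in the real data were not measured by this. No merging by molecular identifier is stated, so that counts may hold PCR copies. Sequence outside annotated exons, CMC libraries and tRFs were not analysed here.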

Additional observations from a re-analysis of the deposited data

How the results depend on the processing

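Called loci numbered 111230, and 200200 at an adjusted p under 0.05, 71513 when loci were merged by 5′ end, 17322 (8886 higher) when abundant loci (100 counts or more on average) were fitted alone, and 57823 to 123735 when 1 library was left out, with 59288 without input replicate 1, 66977 without input replicate 2 and 57823 without input replicate 3. Called clusters numbered 130 (without input replicate 1) to 226 when 1 library was left out, against 204 with all. No called locus, family or subfamily had the opposite call in another setting, 5′ ends aside, which were not matched to loci, and 1 cluster did, that of Ctdsp2 with loci of 24 to 33 nt alone (log2 fold change 0.74). Scaling moved the share of rises among called loci from 39.8% to 52.0% with total counts alone (chosen after seeing the data). With each locus counted once, the difference at 29 to 31 nt turned to 2.99 points, that at 30 nt to 1.37 and that in first-base U to 0.880 with groups that overlapped, while mean U content differed by -3.14. The difference at 34 nt or more was 0.280 with loci over 20 counts and 2.80 with each locus once. That in distinct loci was -123214 for 5′ ends and -14710 at 1157570 counts. That in 10-nt overlaps was 1.94 with each 5′ end once and 1.73 at 24 to 33 nt. The cause was not tested for any of these. Of other results on named loci, 444 values kept their side of the threshold and 5 did not, and for families the numbers were 308 and 34.

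Replicate numbers did not mark pairs: deviations of same-numbered libraries from their group means correlated at -0.08, 0.16 and 0.01 over 59308 loci. A replicate block in the fit gave 108113 called loci, 100649 of them among the 111230, and 189 clusters, 13 families and 155 subfamilies, with ERVL-MaLR and ERVK# the families lost. Simulated 2-fold changes were mostly missed at loci, abundant ones included (7 of 100 found).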
